A study of Mus musculus with 6 samples.

Results

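The genes described here encode the mouse receptors for the constant region of IgE and IgG antibodies, together with the neonatal Fc receptor. Members were 8 genes (Fcer1a, Ms4a2, Fcer1g, Fcgr1, Fcgr3, Fcgr4, Fcgr2b and Fcgrt), taken as every probe set whose platform annotation names 1 gene only and that gene is one of the 8. This gave 14 probe sets of 34945 that name 1 gene, and 8 genes of 18193. They were compared between 3 arrays of MLL-AF9/Mn1null cells and 3 arrays of MLL-AF9/Mn1wt cells.

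Both groups were bone marrow cells of the mouse, sorted and carrying the leukaemia fusion oncogene MLL-AF9, and both are labelled as transduced with a control vector for EGFP. Mn1wt cells have an intact Mn1, the gene of a transcriptional cofactor, and in Mn1null cells it was deleted with CRISPR-Cas9. All cells grew in medium with mouse interleukin 3, human interleukin 6 and mouse stem cell factor. The labels give no strain, age, promoter or number of clones, and whether replicates are separate cultures or animals is left unsaid. The p-values therefore reflect the spread among these 6 samples, which may be technical. The comparison asks which transcripts differ once Mn1 is deleted.

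Fc receptors bind the constant part of an antibody and so link antibodies to cells. The high-affinity IgE receptor of mast cells and basophils is built from an alpha chain that binds IgE, a beta chain that amplifies the signal and a pair of gamma chains that carry the signalling motif called ITAM. The same gamma chain serves the activating IgG receptors of mononuclear phagocytes, neutrophils and mast cells, while the receptor encoded by Fcgr2b carries an inhibitory motif, the ITIM, and restrains them. In the mouse, basophils and mast cells also express IgG receptors, and the neonatal receptor protects IgG from breakdown inside cells.

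The 250 bases before the annotated transcription start of 5 members are shown, from RefSeq on GRCm38.p6, each 5′ to 3′ on the gene's strand. Windows of Fcgr1, Fcgr2b and Fcgrt were searched in the same way but are not printed. Capitals mark every match, on either strand, to AGATAA or TGATAA, which hold the core bound by GATA factors, and to AGGAAG, which holds the core bound by PU.1 and other ETS factors. AGATAA and TGATAA share the letters GATAA. The windows lie at chr1:173227230-173227479 (minus strand) for Fcer1a, chr19:11623720-11623969 (minus strand) for Ms4a2, chr1:171234350-171234599 (minus strand) for Fcer1g, chr1:171059404-171059653 (minus strand) for the first of the 2 starts listed for Fcgr3, and chr1:171018676-171018925 (plus strand) for Fcgr4.
Fcer1a: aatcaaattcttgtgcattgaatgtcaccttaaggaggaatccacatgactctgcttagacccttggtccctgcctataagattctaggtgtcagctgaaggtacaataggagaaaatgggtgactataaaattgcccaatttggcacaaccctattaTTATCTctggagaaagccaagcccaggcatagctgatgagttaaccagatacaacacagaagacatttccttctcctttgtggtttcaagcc
Ms4a2: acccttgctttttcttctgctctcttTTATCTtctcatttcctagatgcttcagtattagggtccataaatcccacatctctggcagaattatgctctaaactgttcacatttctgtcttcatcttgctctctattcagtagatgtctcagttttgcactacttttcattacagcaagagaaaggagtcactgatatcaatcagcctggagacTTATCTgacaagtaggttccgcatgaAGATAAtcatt
Fcer1g: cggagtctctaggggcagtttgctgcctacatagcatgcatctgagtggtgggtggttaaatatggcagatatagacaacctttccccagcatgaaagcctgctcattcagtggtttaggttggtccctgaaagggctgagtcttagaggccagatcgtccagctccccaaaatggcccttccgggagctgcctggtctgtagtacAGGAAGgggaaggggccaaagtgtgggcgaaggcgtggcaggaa
Fcgr3: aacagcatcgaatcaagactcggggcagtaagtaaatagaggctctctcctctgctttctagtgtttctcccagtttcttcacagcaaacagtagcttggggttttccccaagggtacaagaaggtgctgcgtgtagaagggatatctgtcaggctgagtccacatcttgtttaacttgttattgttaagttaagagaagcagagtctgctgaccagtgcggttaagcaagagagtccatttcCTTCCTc
Fcgr4: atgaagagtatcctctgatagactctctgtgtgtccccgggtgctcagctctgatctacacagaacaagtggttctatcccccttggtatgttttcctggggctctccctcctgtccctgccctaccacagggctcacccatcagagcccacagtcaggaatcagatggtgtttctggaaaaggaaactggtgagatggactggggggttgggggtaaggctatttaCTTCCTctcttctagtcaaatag

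AGATAA occurred once before Fcer1a, 92 to 87 bases ahead of its start, and 3 times before Ms4a2, the nearest at 11 to 6 bases. TGATAA was not found in the window of any member, and AGATAA was not found in the windows of the other 6. AGGAAG occurred before Fcer1g (44 to 39 bases ahead), Fcgr3 (7 to 2 bases), Fcgr4 (23 to 18 bases) and, in 2 overlapping copies, Fcgr1. The windows of Fcgr2b and Fcgrt held none of these letters. Of 32851 such windows of all RefSeq genes, 9.99% held AGATAA, 7.94% held TGATAA and 29.5% held AGGAAG. These matches describe the sequence and do not show that a factor binds.

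The deposited values are log2 expression values per probe set. Each difference below is the mean of Mn1null minus the mean of Mn1wt, tested with limma over all 45037 probe sets that are not controls, and called at an adjusted p of 0.05. Array medians lay between 5.16 and 5.22, and correlations within a group were 0.997 to 0.998. Mn1 itself was read at 4.35 ± 0.20 in Mn1wt and 4.13 ± 0.071 in Mn1null (SD, n = 3 each; limma adjusted p = 0.182), a low signal in both groups, near the 30th percentile of 4.07. Where its probe set lies relative to the deletion is not known here, so this does not check the labels. Bacterial labelling controls differed between the same arrays, by -0.85 for their 5′ probe sets, -0.49 for the middle ones and -0.30 for the 3′ ones, while the hybridisation controls differed by -0.094 with overlap. Their part in the results below was not tested.

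The Fc receptor genes were higher in Mn1null almost throughout. Of the 14 probe sets, 12 rose, while none fell at limma's adjusted or unadjusted p of 0.05. Of all probe sets, 27.8% were called, 13.2% higher and 14.7% lower. Above the median of mean signal over all probe sets lay 13 of the 14. With a filter at that median (50th percentile), these 13 were all called higher. Of the 22520 probe sets kept by it, 56.7% were called, and 45.5% of those calls were higher. At least 2-fold higher and called were 10 of the 14, against 2.15% of all probe sets. Probe sets of 1 gene are not separate genes, and Fcgr2b has 5 of the 14. By the probe set with the highest signal per gene, 7 of the 8 genes were called higher and 0 lower. Of all genes, 16.7% were called higher and 18% lower in this way. The 3 Mn1null arrays lay above the 3 Mn1wt arrays for 14 of 14 probe sets, against 19.7% of all, and 21.4% of all lay below. In bulk samples such as these, more cells of a type and more RNA per cell cannot be told apart, nor can fewer cells and less RNA per cell.

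**Figure D1:**
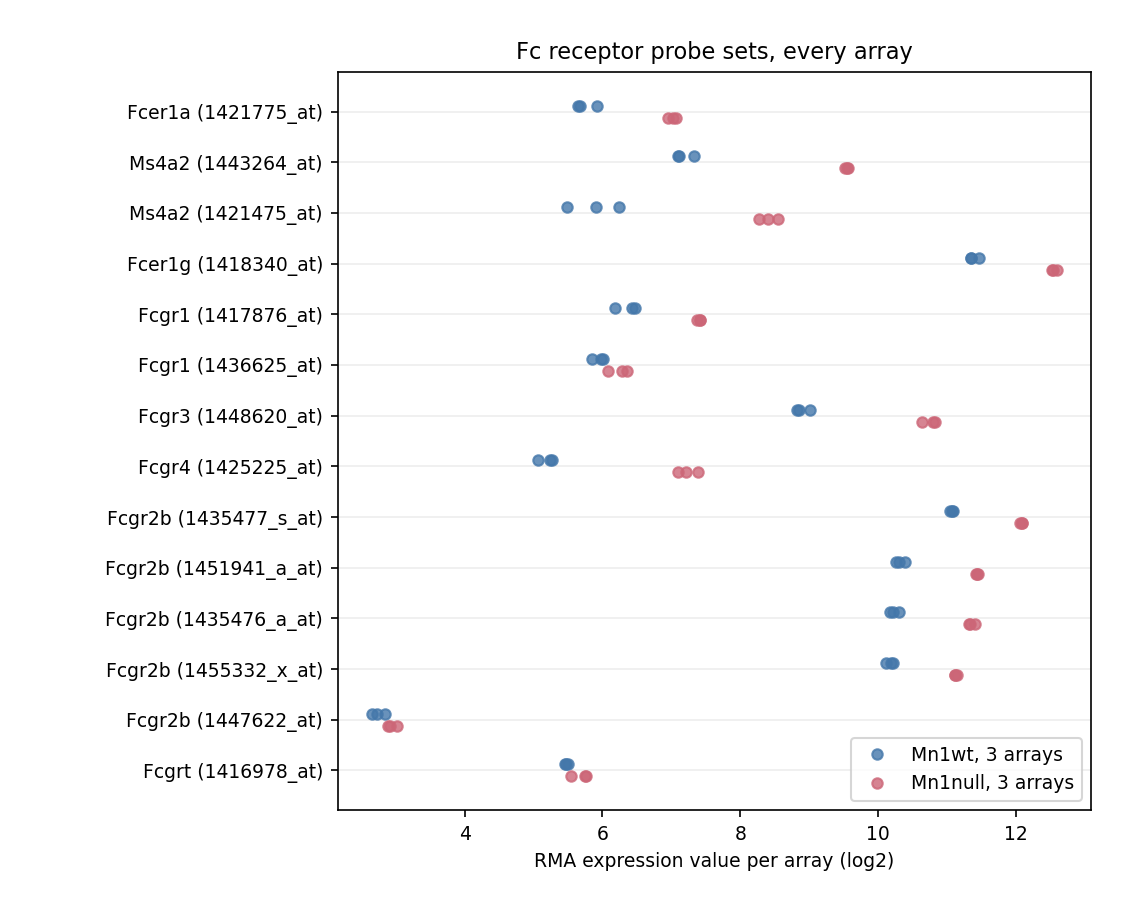
RMA expression values (log2, x axis) of the 14 Fc receptor probe sets (y axis) in each of the 3 Mn1wt and 3 Mn1null arrays, with 1 point per array. The Mn1null points lie to the right of the Mn1wt points in every probe set, widely so for Ms4a2, Fcgr3 and Fcgr4 and narrowly for Fcgrt, for 1 probe set of Fcgr1 and for the low probe set of Fcgr2b.

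The largest difference among the members was that of Ms4a2, which encodes the beta chain of the IgE receptor. Its brighter probe set (1443264_at) read 7.11, 7.10 and 7.33 in Mn1wt and 9.57, 9.52 and 9.55 in Mn1null. Every Mn1null array was thus more than 2 log2 units above every Mn1wt array. The means were 7.18 ± 0.13 and 9.55 ± 0.025 (SD, n = 3 each), a 5.16-fold rise (95% interval 4.55 to 5.86, limma adjusted p = 1.13e-06). The other probe set (1421475_at) read 6.24, 5.49 and 5.91 in Mn1wt and 8.54, 8.27 and 8.40 in Mn1null, a 5.75-fold rise (95% interval 4.30 to 7.68, adjusted p = 4.81e-05). Its Mn1wt arrays had the largest spread of any member (SD 0.38), and the 2 probe sets differed in their change by 0.15 ± 0.23 (SE; exact 2-sided permutation p = 0.5).

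Fcer1a, the alpha chain that binds IgE, rose as well. It read 5.64, 5.68 and 5.92 in Mn1wt and 7.03, 6.95 and 7.07 in Mn1null. The groups were separated by 1.03, far more than the spread within either. The rise was 2.41-fold (95% interval 2.09 to 2.78, limma adjusted p = 4.23e-05).

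Fcer1g, the gamma chain shared by the IgE receptor and the activating IgG receptors, had a high signal in both groups. It read 11.35, 11.47 and 11.36 in Mn1wt and 12.55, 12.52 and 12.60 in Mn1null. The values within each group were close together, with an SD of 0.066 and 0.040. It rose 2.25-fold (95% interval 2.03 to 2.49, limma adjusted p = 1.25e-05).

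Among the IgG receptors, Fcgr4 and Fcgr3 had the larger rises. Fcgr4 encodes an activating receptor that pairs with the gamma chain, and it read 5.27, 5.24 and 5.06 in Mn1wt and 7.10, 7.21 and 7.39 in Mn1null. Its Mn1wt mean of 5.19 ± 0.11 (SD, n = 3) lay just under the median of all probe sets, 5.21. The rise was 4.13-fold (95% interval 3.53 to 4.82, limma adjusted p = 6.08e-06). Fcgr3 encodes the low-affinity activating receptor CD16, and it read 8.85, 8.82 and 9.01 in Mn1wt and 10.83, 10.64 and 10.81 in Mn1null. The groups did not come within 1.63 of each other, and the rise was 3.65-fold (95% interval 3.20 to 4.16, adjusted p = 4.23e-06).

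Fcgr1, the high-affinity IgG receptor CD64, was read by 2 probe sets that did not give the same size of change. The first (1417876_at) read 6.18, 6.43 and 6.48 in Mn1wt and 7.42, 7.42 and 7.37 in Mn1null, a 2.06-fold rise (95% interval 1.79 to 2.37, limma adjusted p = 1.06e-04). On the second (1436625_at) the groups nearly touched, at 6.01, 5.98 and 5.85 in Mn1wt and 6.09, 6.28 and 6.35 in Mn1null. That rise was 1.23-fold (95% interval 1.06 to 1.41, adjusted p = 0.0425). Its call was lost under 10 of 15 alternatives, where the adjusted p over all 15 ranged from 0.0172 to 0.127, and in 5 of these a single array had been left out (Mn1wt replicates 1, 2 and 3, Mn1null replicates 2 and 3). The change of the first exceeded that of the second by 0.75 ± 0.16 (SE; exact 2-sided permutation p = 0.1, the smallest that 3 against 3 arrays allow).

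Fcgr2b, the inhibitory receptor, rose about as much as the gamma chain. On the probe set with the highest signal (1435477_s_at) it read 11.08, 11.07 and 11.05 in Mn1wt and 12.09, 12.09 and 12.06 in Mn1null. The arrays of a group lay close together (SD 0.018 and 0.019), and the rise was 2.02-fold (95% interval 1.84 to 2.21, limma adjusted p = 1.29e-05). The probe sets 1451941_a_at, 1435476_a_at and 1455332_x_at gave rises of 2.17-fold, 2.17-fold and 1.94-fold. Of these 4, 3 share 1 target sequence record and so are not independent, and the suffixes mark probes that can also read other transcripts. The fifth, 1447622_at, lay near the lowest signals of the table, at 2.74 ± 0.094 and 2.94 ± 0.072 (SD, n = 3 each), under the 30th percentile of mean signal (4.07). It did not pass (difference 0.20, limma adjusted p = 0.0877).

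Fcgrt, the neonatal Fc receptor that recycles IgG and albumin, read 5.46, 5.50 and 5.46 in Mn1wt and 5.75, 5.74 and 5.54 in Mn1null. The third Mn1null array lay only 0.040 above the highest Mn1wt array. At 0.20 (95% interval 0.029 to 0.38), the difference missed the threshold (limma adjusted p = 0.0867). It passed under 3 of 16 alternatives: without Mn1null replicate 3 (0.27, adjusted p = 0.0256), with the filter at the 50th percentile (adjusted p = 0.0332) and with 1 probe set per gene together with the filter at the 30th percentile (adjusted p = 0.0412).

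**Figure D2:**
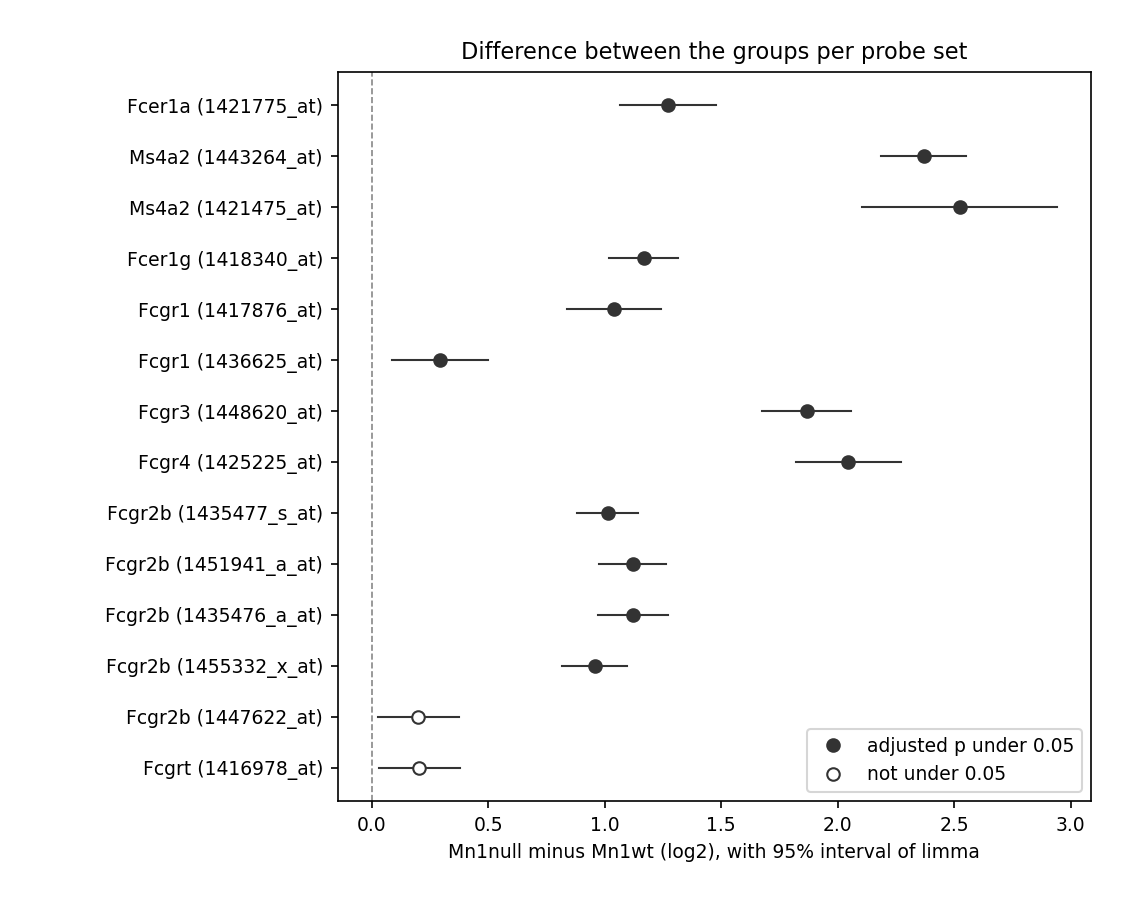
Difference of mean log2 values, Mn1null minus Mn1wt (x axis), with limma's 95% interval, for each of the 14 probe sets (y axis). Filled points passed an adjusted p of 0.05, and the 2 open points, at 0.20 each, did not.

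How far the members rose was compared in pairs. For this, the log2 value of one was subtracted from that of another within each array, using the probe set with the highest signal, and 7 such pairs were compared between the groups. With 3 against 3 arrays the exact 2-sided permutation p cannot go below 0.1, which is 0.14 after adjustment over the 7 pairs, so no pair could pass 0.05. The change of Fcgr3 exceeded that of the inhibitory Fcgr2b by 0.86 ± 0.092 (SE), and that of Fcgr4 by 1.03 ± 0.11, without overlap between the groups (exact p = 0.1 each). For Fcer1g the excess over Fcgr2b was 0.16 ± 0.052, also without overlap (exact p = 0.1). For Fcgr1 it was 0.028 ± 0.10 (exact p = 1), with overlap. Its sign turned without Mn1wt replicate 1 (-0.071), with quantile normalization (-0.039) and with the mean of all probe sets of each gene (-0.22).

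Within the IgE receptor, the beta chain had the largest change of the 3 chains. The change of Fcer1a minus that of Ms4a2 was -1.10 ± 0.032 (SE; exact p = 0.1), and Ms4a2 exceeded Fcer1g by 1.20 ± 0.10 (exact p = 0.1). Fcer1a and Fcer1g differed by 0.10 ± 0.11 (exact p = 0.4), with overlap, a value of 0.031 without Mn1wt replicate 2, 0.21 without Mn1wt replicate 3 and 0.024 with quantile normalization. These values compare changes only, since the signal of one probe set cannot be set against that of another.

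**Figure D3:**
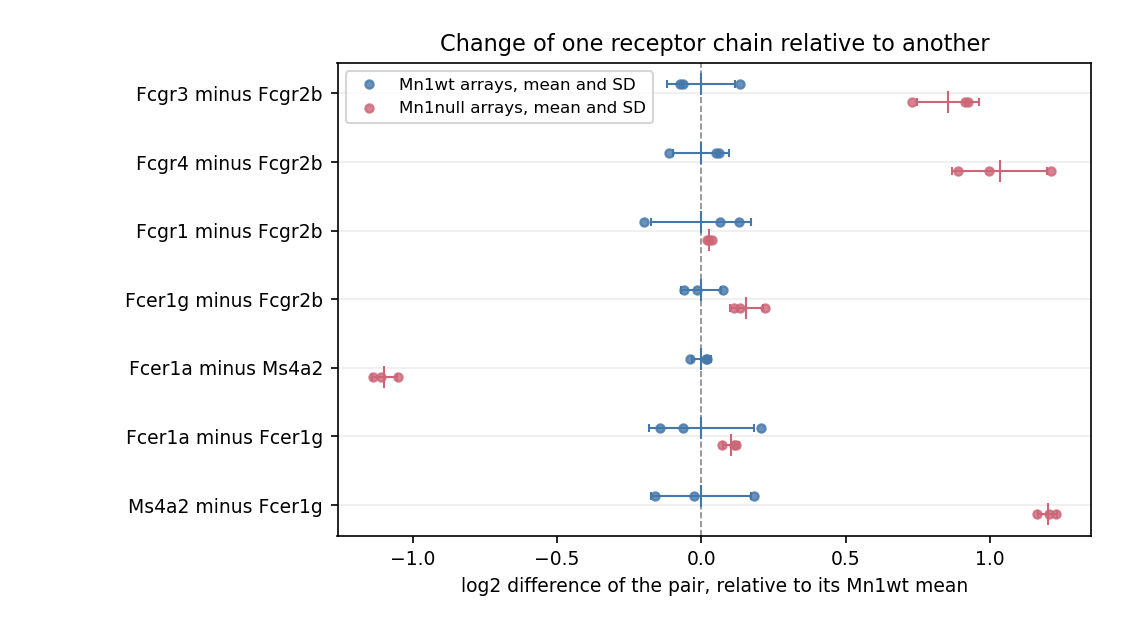
Log2 difference between 2 receptor genes within each array, relative to the Mn1wt mean of that pair (x axis), for the 7 pairs (y axis); points are arrays and bars are mean and SD (n = 3 per group). The groups stay apart for 5 pairs and overlap for Fcgr1 minus Fcgr2b (0.028) and Fcer1a minus Fcer1g (0.10).

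Genes that bind antibody or work with the receptors were not all higher. Of 12 other Fc-binding receptors and partners, 9 had a probe set of their own; by the brightest probe set of each gene 0 rose, whether by limma's adjusted or unadjusted p, and 1 fell, with a median difference of 0.072, against 0.00013 over all 18193 genes. By their highest probe set, 34.7% of all genes were called, 16.7% higher and 18% lower. Trim21, the cytosolic IgG receptor, had a second probe set that was called higher (0.39). The gene that fell was B2m, which encodes the light chain of the neonatal receptor and of MHC class I (-0.27 ± 0.061, SE; limma adjusted p = 0.0146), a call lost without Mn1wt replicate 2. Picked after their values were seen, the B cell genes Fcrla and Fcmr and the epithelial transporter gene Pigr had group means between 3.36 and 4.47, on either side of the 30th percentile of signal. In the list of receptors that pair with the gamma chain and of other ITAM adaptors, 4 of 9 rose and 1 fell (median 0.24). The adaptors Hcst (1.36 ± 0.068), which is in the list although it carries no ITAM, and Tyrobp (0.64 ± 0.056) rose. The other rises of the list were those of the receptor genes Clec4e (0.58) and Clec4d (0.32), picked after their values were seen. Clec4n, the fungal receptor Dectin-2 that signals through the gamma chain, fell by 2.35 (SE 0.19).

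Downstream kinases and adaptors moved both ways. Of 13 measured, 6 rose and 3 fell, with a median of 0.25. Btk, a kinase that activates phospholipase C gamma, rose by 0.79 ± 0.060 (SE), and the adaptor Lat2 by 0.82 ± 0.073, a call not shared by its other 2 probe sets and lost when probe sets with a suffix were left out (-0.15 and 0.019). The adaptor Lcp2, known as SLP-76, fell by 0.87 and Cd2ap by 0.65, each on 1 probe set, with -0.31 on the other of Lcp2 and -0.33 and -0.20 on the others of Cd2ap, none called. Picked after its values were seen, the scaffold gene Lat had the largest change of the list (2.30, limma adjusted p = 2.64e-04), while Syk, the kinase that docks on the ITAM, differed by 0.13 (adjusted p = 0.275), with 1 of its other 3 probe sets called higher (0.35).

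In lipid, calcium and small GTPase signalling, 13 of 33 genes rose and 8 fell (median 0.15). One of the 8, Pdk1, encodes a mitochondrial kinase that does not belong to this pathway. Rasgrp1, an activator of RAS in mast cells and lymphocytes, rose by 2.91 ± 0.13 (SE) and protein kinase C alpha gene Prkca by 1.74 ± 0.095. The other probe sets gave 0.18 to 0.79 for Rasgrp1 and 0.22 to 1.23 for Prkca. Mapk8 (-0.92 ± 0.060) and Vav2 (-0.73 ± 0.10) fell.

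The list of inhibitory phosphatases, adaptors and ubiquitin ligases had more falls than rises, 7 against 2 of 14 measured, with a median of -0.25. Pag1, an adaptor that recruits the SRC inhibitor CSK, fell by 0.91 (SE 0.071), with -0.15 to 0.072 on its other probe sets. Spred1, an inhibitor of ERK signalling, fell by 0.73 (SE 0.092), but of its 8 probe sets 3 passed downward and 1 upward (0.35). The adaptor Dok3 (0.59 ± 0.072) and the G protein regulator Rgs1 (1.23 ± 0.17) rose.

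**Figure D4:**
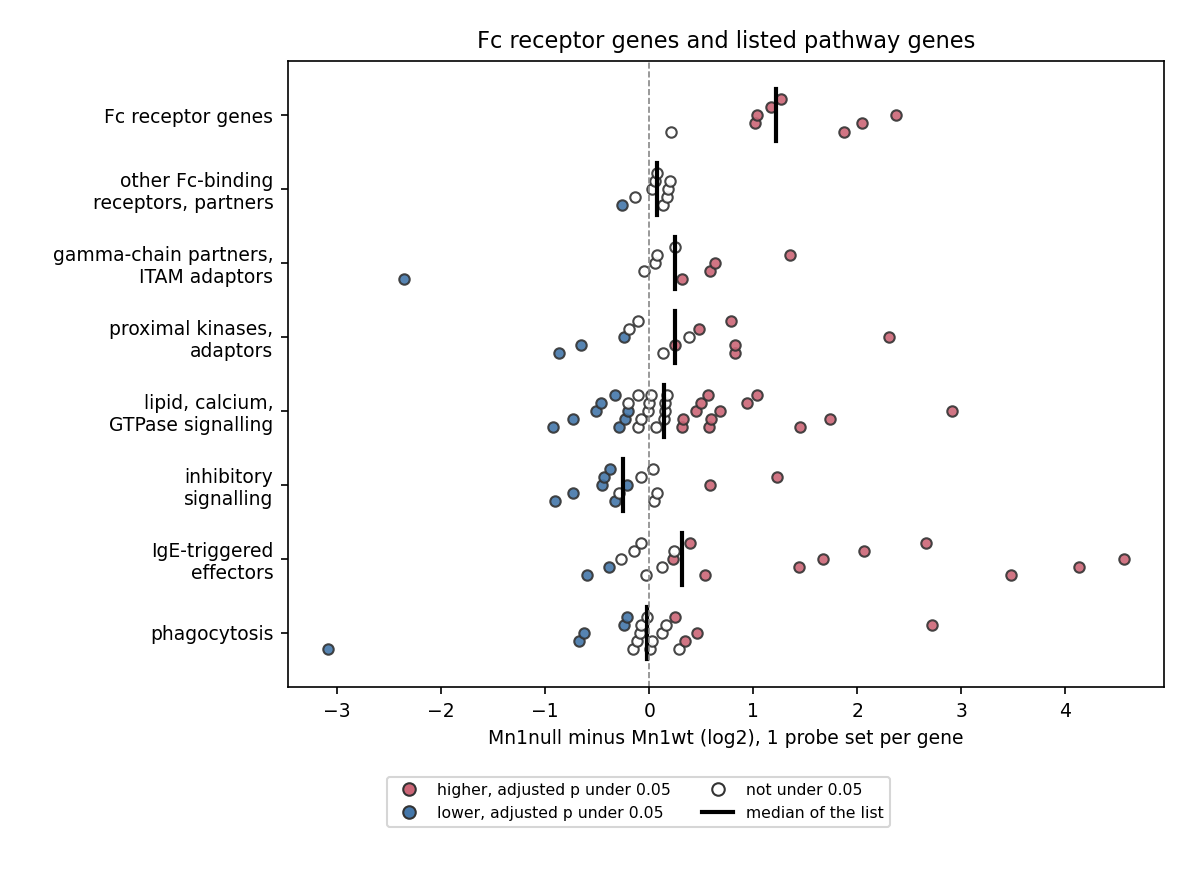
Difference of mean log2 values, Mn1null minus Mn1wt (x axis), for the 8 Fc receptor genes and 7 lists of related genes (y axis), with 1 point per gene by its brightest probe set and a black bar at the median. The Fc receptor genes have a median of 1.22, and the medians of the lists lie between -0.25 and 0.31.

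Genes whose products are made or released after IgE binding included the largest rises among these 7 lists. Of 18 measured, 10 rose and 2 fell, with a median of 0.31. Cpa3, a mast cell carboxypeptidase, went from 8.19 ± 0.047 to 12.32 ± 0.011 (SD, n = 3 each), and Il6, which encodes interleukin 6, from 6.76 ± 0.068 to 10.24 ± 0.047. Tnf fell by 0.60 (SE 0.061) and the phospholipase gene Pla2g4a by 0.39 (SE 0.067). Genes of actin-driven uptake of opsonised particles were divided, with 4 of 19 higher and 5 lower (median -0.024). There the actin-severing protein gene Gsn rose by 2.72 ± 0.069 and Limk1 by 0.46 ± 0.083, while Marcksl1 fell by 3.09 and Asap1 by 0.67. Limk1 was not called on its other 2 probe sets (0.13 and 0.39).

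Markers of the cell types that carry Fc receptors differed between the same arrays. The summed signal of 13 mast cell markers, on a log2 scale, ranged from 11.57 to 11.60 in Mn1wt and from 13.85 to 13.88 in Mn1null, and 6 of the 13 rose. The median difference of the list was 0.067, so the rise of the sum was not shared by most of its genes. By limma's adjusted p of 0.05 none fell, and by the unadjusted p 1 did, Kit. Hdc, the histamine-forming enzyme, rose by 4.56 ± 0.095 (SE). Hdc, Cpa3, Cma1 and Tpsb2 are also counted, by the same probe sets, among the genes made or released after IgE binding. Hdc had the largest rise of that list too. Chosen after their values were seen, the mast cell protease genes Cma1 (4.37 and 4.22) and Tpsb2 (5.07 and 4.98) did not pass, and Kit, the receptor of stem cell factor, was at 10.44 and 10.28 (adjusted p = 0.0846). Under the 30th percentile of signal in both groups were 3 of the 13, among them the protease gene Mcpt4 (3.54 and 3.80), one of the 6 that rose (limma adjusted p = 0.0457).

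Of 8 basophil markers 6 rose, with sums from 12.21 to 12.26 in Mn1wt and from 13.62 to 13.67 in Mn1null. Among them were Cd200r3 (4.06 ± 0.098, SE) and Gzmb (2.84 ± 0.056). Named after their values were seen, Mcpt8 rose by 0.55 from 11.20 in Mn1wt, while Itga2 (-0.13) and Il3ra (0.21) did not pass. Gata2, which rose, is counted in both the mast cell and the basophil list. Eosinophil markers rose in 5 of 6 cases, with sums from 7.98 to 8.11 and from 10.85 to 10.93, and Prg2, a granule protein gene, rose by 3.51 ± 0.091. Monocyte and macrophage markers went the other way: 9 of 13 fell and 1 rose, with sums from 13.74 to 13.79 and from 11.72 to 11.77. F13a1 fell by 5.69 (SE 0.069). The part of these cell types in the Fc receptor differences was not tested.

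Other lineages gave a mixed picture. Neutrophil markers rose in 7 of 11 cases and fell in 1 (sums 14.61 to 14.65 and 15.00 to 15.02). Mpo, the myeloperoxidase of granulocyte precursors, was at 13.84 and 14.11, and the collagenase Mmp8 fell by 4.53. Of 6 megakaryocyte markers 3 rose and 1 fell, the latter the platelet gene Pf4 (-0.98). Itga2b rose by 3.62 ± 0.088 (SE). The sums went from 9.50 to 9.63 in Mn1wt and from 11.67 to 11.84 in Mn1null, where Itga2b alone read 11.54. Dendritic cell markers rose in 3 and fell in 1 of 8, with Bst2 at 0.31 and H2-Ab1 at -0.73. Of 7 B cell markers 1 rose and 1 fell, the latter Cd79b (-0.91 ± 0.15). None of 8 T and NK cell markers passed limma's adjusted or unadjusted p of 0.05; Cd8a differed by 0.032 and Cd3e by 0.18. Of 5 erythroid markers 2 rose, Klf1 by 1.07, with Tfrc at 12.89 and 12.75, and of 7 stromal and endothelial markers 1 rose, Pecam1 (1.78 ± 0.072), which blood cells also express. The sums of that list were 9.39 to 9.53 and 10.92 to 10.99. The rise of the megakaryocyte sum was thus larger than that of the basophil sum, and that of the stromal sum was close to it. By list, the median difference was 0.63 for megakaryocyte, -0.060 for stromal and 0.79 for basophil markers.

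**Figure D5:**
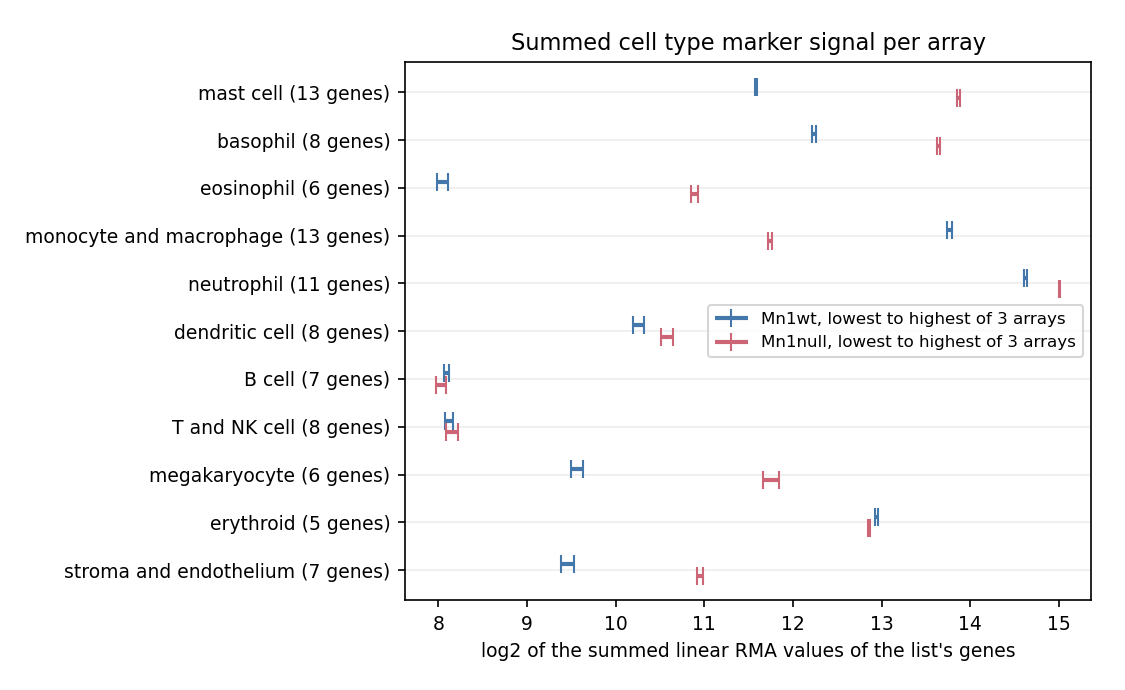
Log2 of the summed linear RMA values of each marker list (x axis), as the range over the 3 arrays of each group, for 11 cell types (y axis; number of measured genes in brackets). Mast cell, basophil and eosinophil sums are higher in Mn1null and monocyte and macrophage sums lower, while B cell and T and NK cell sums overlap. Megakaryocyte and stromal sums are higher in Mn1null too.

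Several members lie near each other in the genome. In RefSeq's order of protein-coding genes (GRCm38.p6), Fcgr2b, Fcgr4 and Fcgr3 are neighbours on chromosome 1, with Fcer1g and Fcer1a on the same chromosome, Fcgr1 on 3, Fcgrt on 7 and Ms4a2 on 19. The 3 protein-coding genes on each side of every member were compared, a set added after the data were seen. Of 22 measured genes that are no members, 6 rose, 3 fell and 13 did not pass, against 16.7% and 18% of all genes called higher and lower.

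Next to the Fcgr genes, Cfap126 rose by 0.83 ± 0.080 (SE; limma adjusted p = 2.27e-04) and Sdhc by 0.24 ± 0.068 (adjusted p = 0.0340), while Fcrla on the other side differed by 0.056 (adjusted p = 0.645). Beside Fcer1g, Tomm40l fell by 0.33, B4galt3 rose by 0.31 and Apoa2 differed by 0.16 (adjusted p = 0.249). Around Ms4a2, Oosp1 rose by 1.69 ± 0.13. Of the related Ms4a membrane protein genes there, Ms4a6b rose by 1.30 ± 0.071 and Ms4a6d fell by 3.79 (SE 0.11), while Ms4a3 differed by -0.093 (adjusted p = 0.321). Neighbours of a member thus included genes that rose, genes that fell and genes that did not pass.

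For the 3 members with the largest differences, the genes with the nearest pattern were found as the smallest Euclidean distance over the 6 arrays between values centred on the Mn1wt mean, among 20012 probe sets above the median signal. With 2 groups this mostly ranks genes by the size of their difference. Nearest to Ms4a2 were Pbx3 (distance 0.11), Mst1 (0.12) and Chst13 (0.13), which rose by 2.37, 2.32 and 2.35. Fcgr4 had Acoxl (0.21), Tcn2 (0.24) and Nudt7 (0.25) as its nearest, each with a rise of 2.03. For Fcgr3 they were Rab37 (0.12), Sipa1l1 (0.15) and Ypel5 (0.17), with rises of 1.82, 1.88 and 1.86.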

How the data were processed

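RNA of 6 samples, 3 per group, was hybridised to Affymetrix mouse arrays, with groups and replicate numbers from the sample titles. Per the labels' protocols, 3 microgram of total RNA was amplified with a T7 primer and labelled with biotin. The log2 values deposited by the authors come from RMA, which the submitters' processing notes name without a version or filter. RMA quantile-normalizes arrays and compresses low signals.

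The table held 45101 probe sets, of which 64 controls were left out of all tests. Of the other 45037, 34945 named 1 gene, 932 several and 9160 were not listed in the platform annotation; only the first kind was named. Entrez identifiers of 34741 were found in RefSeq (GRCm38.p6), and 0 symbols changed. All 45037 probe sets were fitted, without a filter or block, in limma 3.58.1 (lmFit, then eBayes; R 4.3.3), 2-sided, with Benjamini-Hochberg adjustment; every adjusted p of a gene or probe set comes from this model unless another setting is named. Lists used the probe set with the highest mean per gene. Named genes were all members, up to 2 per direction and list with the smallest p, genes whose probe sets passed in opposite directions, the nearest patterns, and per marker list the brightest marker and the one with the largest difference. The members and lists were chosen with earlier results of these data known. The fit was tested on simulated data with independent normal errors and far fewer changed probe sets than were called here. That test therefore does not describe the calls in these data. The number of arrays limits the precision. The alternatives were each array left out in turn, other choices of probe sets, filters at the 30th and 50th percentiles, a threshold of 0.01, median centring, quantile normalization, array weights, robust eBayes with an intensity trend, and a block on the replicate number. Figures were drawn with matplotlib.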

Additional observations from a re-analysis of the deposited data

How the results depend on the processing

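Of the 14 member probe sets, 11 were called higher in all 168 values obtained for them under the 16 alternatives, and no member probe set changed direction in any of 212 such values. The low probe set of Fcgr2b passed in 0 of 13. The number called higher was 7 of 10 among probe sets without a suffix, a setting that leaves out 4 of the 5 for Fcgr2b, and 11 or 12 of 14 when an array was left out. With 1 probe set per gene and a filter at the 30th percentile, 7170 of 14680 were called (48.8%) against 12528 of 45037 (27.8%); this setting changes 2 choices together, and the cause was not tested. With the mean of all probe sets of a gene, the change of Fcer1a relative to Ms4a2 was -1.17, of Fcer1g relative to Fcgr2b 0.29 and of Fcgr3 relative to Fcgr2b 0.99. That of Fcgr1 relative to Fcgr2b turned to -0.22 there and to -0.039 with quantile normalization. Over the arrays left out it ranged from -0.071 (without Mn1wt replicate 1) to 0.094. For the means, the probe sets with the smallest change of each gene, 1436625_at of Fcgr1 and 1447622_at of Fcgr2b, enter by construction. For quantile normalization the cause was not tested.

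Same-numbered samples deviated together with correlations of -0.047, 0.099 and 0.032, and samples of unlike number with -0.19 to 0.16. Not every sample correlated best with its own number. With 3 arrays per group, these values cannot show whether same-numbered samples were handled together. With the replicate number as a block, 11196 probe sets and 11 of the 14 members were called, and 60 of 115 pathway genes against 66. Probe sets near the floor of RMA, such as 1447622_at, limit what can be said of low signals.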
